A study of Mus musculus with 24 samples.

Results

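The 9 genes described here mark the mural cells of blood vessels, the cells that wrap around the endothelium. Pdgfrb, Rgs5, Kcnj8, Abcc9, Notch3 and Mcam stand for pericytes, and Myh11, Tagln and Cnn1 stand for the contractile apparatus of vascular smooth muscle. They were chosen by symbol as known markers, but with earlier results of these data known, so counts of members called are descriptive. All 9 were found among the 40840 gene symbols of the count table. RNA from the apex of the heart was sequenced in 24 wild-type C57/Bl6J mice, 6 in each of 4 groups. The groups were hypoxia with transverse aortic constriction (TAC), normoxia with TAC, hypoxia with sham surgery and normoxia with sham surgery. In TAC the aorta is narrowed with a suture, here set by a 25-gauge needle, so that the left ventricle pumps against a higher pressure. Per the labels, mice were killed on day 3, and libraries started from 100 ng of total RNA. The oxygen level, the length of the exposure, and the sex and age of the mice were not given in the sources used here.

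Pericytes sit on capillaries, and smooth muscle cells on arterioles and larger vessels. The receptor Pdgfrb recruits pericytes to the platelet-derived growth factor that endothelium secretes, Notch3 receives endothelial ligands and keeps mural cells mature, and an ATP-sensitive potassium channel (KATP channel) of Kcnj8 and Abcc9 couples mural cell tone to metabolism. Smooth muscle contraction rests on the myosin Myh11 and on the actin-binding proteins Tagln and Cnn1, whose genes are driven by serum response factor (SRF) and its partner myocardin. The markers are not exclusive in the heart: cardiomyocytes also use Abcc9, endothelium can carry Mcam, and fibroblasts that become myofibroblasts can switch on Tagln and Cnn1.

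Promoters of 6 of the 9 genes were found in the RefSeq table of build GRCm38.p6, each with 250 bases before and 50 after the annotated start. The 3 shown are those of Abcc9 and Kcnj8, which lie next to each other and encode partners in 1 channel, and of Cnn1, the member with the widest spread between mice. Each is written in the direction of transcription. Capitals mark letters that match the RBPJ site TGGGAA (the DNA site of the Notch pathway) or the MCAT element CATTCC (the site of TEAD factors) on either strand. The Abcc9 promoter lies at chr6:142702225-142702524 on the minus strand, the Kcnj8 promoter at chr6:142571565-142571864 on the minus strand, and the Cnn1 promoter at chr9:22099003-22099302 on the plus strand.
Abcc9: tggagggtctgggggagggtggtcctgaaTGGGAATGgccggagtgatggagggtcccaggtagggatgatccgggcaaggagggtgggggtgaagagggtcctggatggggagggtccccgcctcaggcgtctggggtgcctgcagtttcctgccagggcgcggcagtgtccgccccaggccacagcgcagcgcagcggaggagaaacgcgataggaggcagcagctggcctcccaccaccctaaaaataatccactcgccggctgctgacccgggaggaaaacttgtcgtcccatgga
Kcnj8: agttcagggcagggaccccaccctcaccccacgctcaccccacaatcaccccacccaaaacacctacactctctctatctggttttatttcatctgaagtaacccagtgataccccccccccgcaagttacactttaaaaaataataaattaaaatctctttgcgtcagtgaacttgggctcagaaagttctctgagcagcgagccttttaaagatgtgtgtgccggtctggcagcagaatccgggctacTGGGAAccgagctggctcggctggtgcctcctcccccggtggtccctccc
Cnn1: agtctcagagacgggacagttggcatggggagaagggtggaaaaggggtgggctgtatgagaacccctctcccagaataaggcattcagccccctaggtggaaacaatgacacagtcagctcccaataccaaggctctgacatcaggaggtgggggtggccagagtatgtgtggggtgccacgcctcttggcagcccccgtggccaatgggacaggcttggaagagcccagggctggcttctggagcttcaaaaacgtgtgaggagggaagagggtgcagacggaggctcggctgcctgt
The Abcc9 promoter held TGGGAA 221 bases before the start, overlapped by a reverse-strand match to the MCAT element whose first letter lies 219 bases before the start. Kcnj8 held TGGGAA from the first transcribed base, and Cnn1 held neither motif. TGGGAA was present in 25.6% of 32851 promoters of the same length and CATTCC in 14.7%. The CArG box, the DNA site of SRF, was present in 1.63% of them and in none of the 6 member promoters, those of Rgs5, Kcnj8, Abcc9, Cnn1, Mcam and Notch3. Promoters of Myh11, Tagln and Pdgfrb were not found, so Cnn1 was the only contractile gene searched. These matches describe the letters only.

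Library totals ran from 10136915 to 15058159 counts, and all 9 genes passed the filter on low counts that kept 15027 genes for testing. On the first principal component of the 1000 most variable genes, which held 54.5% of the variance, the 12 sham libraries lay between 13.7 and 25.7. Normoxia TAC mouse 1 lay inside that range at 15.7, and hypoxia TAC mouse 4 lay next to it at 12.8. The share of counts from mitochondrial ribosomal RNA was 2.95 ± 0.62% in hypoxia TAC and 4.72 ± 0.73% in normoxia TAC libraries, against 3.29 ± 0.33% in hypoxia sham libraries and 3.27 ± 0.31% in normoxia sham libraries (SD, n = 6 each). Its part in the results was not tested.

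Per kilobase of exon, Rgs5 was far above the other members. In normoxia sham hearts it averaged 274.9 ± 21.2 CPM (counts scaled to a common library size) per kilobase (SD, n = 6). Abcc9 followed at 30.7 ± 1.3, Kcnj8 at 22.3 ± 1.9 and Pdgfrb at 10.7 ± 1.1 CPM per kilobase, and none of these 4 overlapped with the gene next in order. Mcam at 3.15 ± 0.29, Notch3 at 3.11 ± 0.47, Myh11 at 2.37 ± 0.72, Tagln at 2.36 ± 0.86 and Cnn1 at 0.694 ± 0.527 CPM per kilobase each overlapped with their neighbours in that order. Lengths came from the GENCODE annotation of GRCm38, which need not be the annotation used for counting. All values below are CPM without division by length, and so compare mice and not genes.

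**Figure D1:**
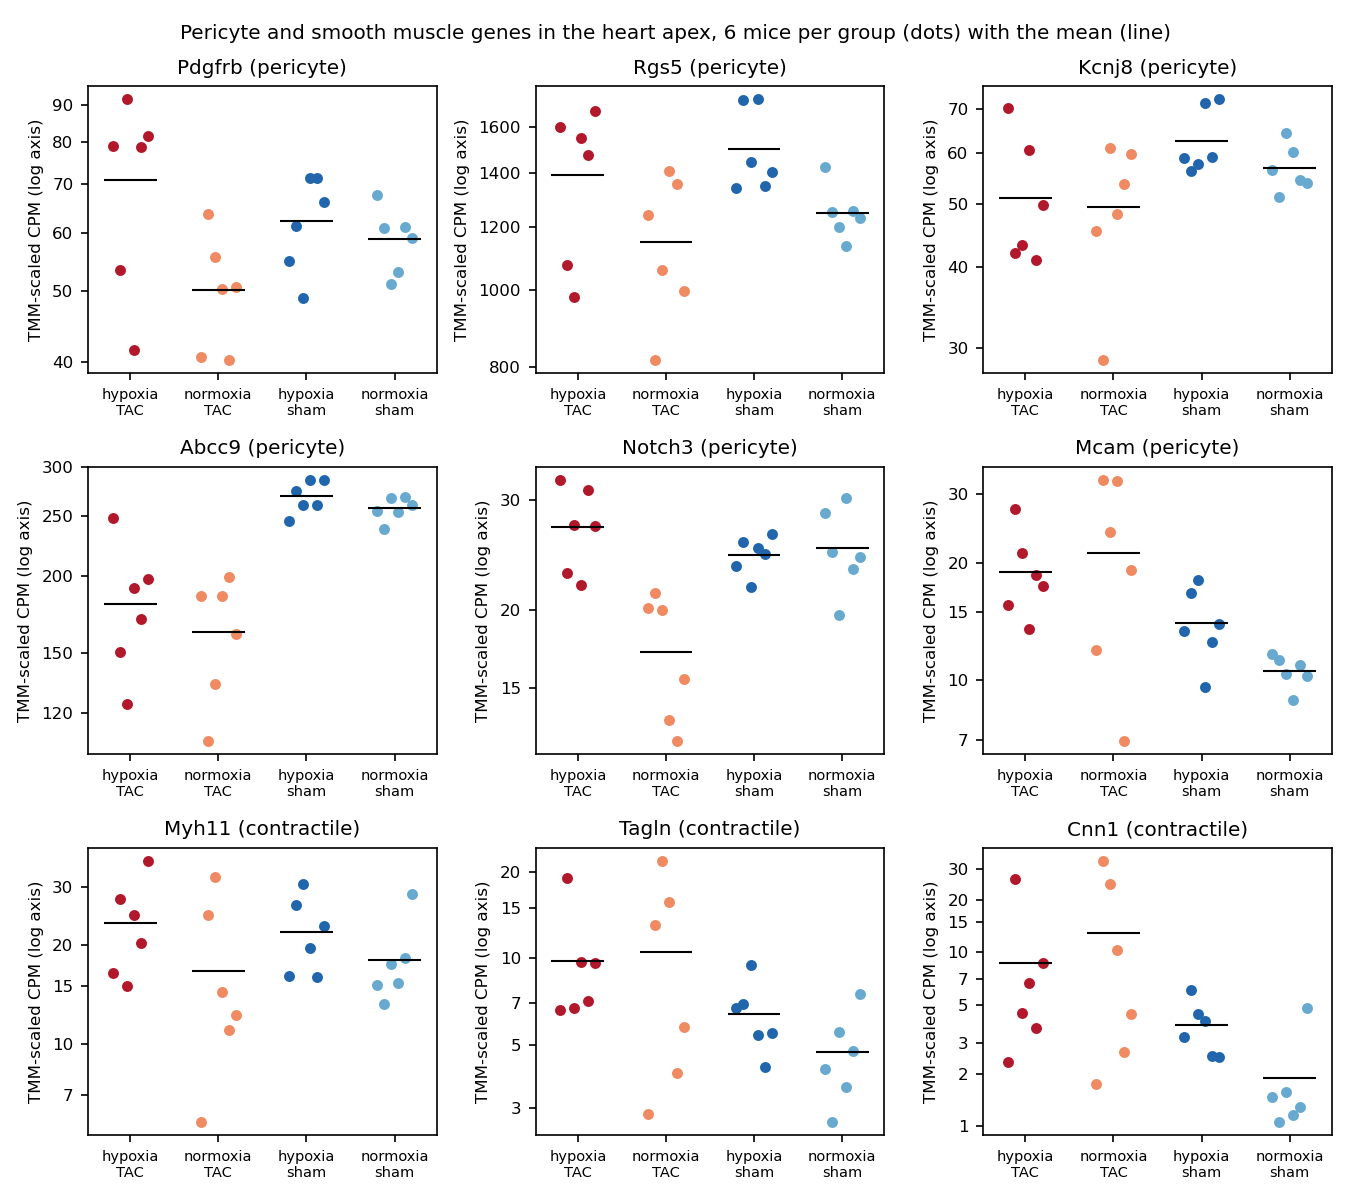
TMM-scaled CPM (log axis) of each of the 9 genes in every mouse, by group, with the group mean as a line. Abcc9 was lower in all 6 normoxia TAC mice than in any normoxia sham mouse, Notch3 was higher in all 6 hypoxia TAC mice than in any normoxia TAC mouse, and Cnn1 ran from 1.75 to 33.5 CPM within the normoxia TAC group.

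TAC against sham in normoxia addressed the response to pressure load at normal oxygen. Cnn1, Mcam and Tagln rose, Abcc9 and Notch3 fell, and Pdgfrb, Rgs5, Kcnj8 and Myh11 did not pass the test (edgeR quasi-likelihood F test, Benjamini-Hochberg adjusted p under 0.05 over all genes tested). That made 5 of 9 members called, against 27.4% of all genes tested. The median log2 change was -0.21 over the 6 pericyte genes and 1.17 over the 3 contractile genes, beside 0.01 over all genes. In whole tissue, fewer cells of a type and less RNA per cell cannot be told apart. These p-values rest on a spread between mice that was fitted over all 4 groups together. The fitted coefficient of variation was 0.241 with all libraries and 0.258 in the 12 normoxia libraries. It was 0.106 in the 12 sham libraries and 0.323 in the 12 TAC libraries, so sham and TAC mice differed in spread.

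Pdgfrb ranged from 40.3 to 63.8 CPM (median 50.5) in normoxia TAC mice, against 51.2 to 67.7 CPM (median 60.03) in normoxia sham mice. The groups overlapped, and 4 of 6 TAC mice lay below every sham mouse. The log2 change of -0.23 ± 0.15 (SE, as for all log2 changes here) had an adjusted p = 0.277 by the edgeR test.

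Notch3, the Notch receptor of mural cells, ran from 12.4 to 21.3 CPM (median 17.8) in normoxia TAC mice and from 19.6 to 30.2 CPM (median 24.6) in normoxia sham mice. In 3 of the TAC mice it lay below every sham mouse, and the other TAC mice lay at the lower end of the sham range. Notch3 fell by 0.55 ± 0.14 on the log2 scale (edgeR adjusted p = 0.00494). Its reads may be shared with the RefSeq predictions Gm38585 and Gm41568 that overlap it, since the strand setting of the counting is not given in the sources used here.

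Rgs5, a brake on G protein signalling that is abundant in pericytes, ranged from 817 to 1411 CPM (median 1150) in normoxia TAC mice, against 1136 to 1424 CPM (median 1242) in normoxia sham mice. In 3 of the TAC mice the value lay below the sham range. The log2 change was -0.12 ± 0.14 (edgeR adjusted p = 0.527).

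Of the 2 subunits of the vascular KATP channel, one passed the test. Abcc9, the regulatory subunit, ranged from 108 to 199 CPM (median 173) in normoxia TAC mice and from 238 to 268 CPM (median 258) in normoxia sham mice. All 6 TAC mice were below all 6 sham mice, and 3.86% of all genes tested were separated downward in this way. Abcc9 fell by 0.67 ± 0.14 on the log2 scale (edgeR adjusted p = 0.00166), to 0.631 of the sham mean. Reads of Abcc9 may be shared with 5330439B14Rik, which overlaps it in RefSeq.

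Kcnj8, the pore subunit, ranged from 28.8 to 61.0 CPM (median 51.0) in normoxia TAC mice, against 51.2 to 64.3 CPM (median 55.4) in normoxia sham mice. In 3 of the TAC mice it lay below the sham range, and its log2 change of -0.20 ± 0.15 had an adjusted p = 0.334 in edgeR. Within each library, Abcc9 had 3.38 ± 0.75 reads per Kcnj8 read in normoxia TAC and 4.56 ± 0.31 in normoxia sham mice (SD, n = 6 each). These ratios, which do not depend on library scaling, ran from 2.19 to 4.09 in TAC mice and from 4.17 to 4.93 in sham mice, without overlap. The CPM of Abcc9 alone already separated these mice, and the share of gene pairs whose ratios separate was not computed. The difference between the changes of the 2 subunits was not tested.

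Cardiomyocytes are another source of Abcc9. The summed level of 8 cardiomyocyte markers ran from 35657 to 73208 CPM in normoxia TAC mice and from 68032 to 74446 CPM in normoxia sham mice. Of the 8, the stress myosin Myh7 rose by 1.82 ± 0.30 on the log2 scale (edgeR adjusted p = 0.000292), the adult myosin Myh6 fell by 0.85 ± 0.12 (adjusted p = 0.000102), and none was at 0. Their part in the change of Abcc9 was not tested. Both other KATP subunits fell as well: Kcnj11, the pore of the channel in heart muscle, by 0.51 ± 0.17, and Abcc8, its regulatory partner in pancreatic islets, by 0.56 ± 0.20 on the log2 scale (edgeR adjusted p = 0.0299 and 0.0414). Neither was called in the fit of only the 12 normoxia libraries.

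Mcam, an adhesion molecule of vascular cells, ranged from 6.98 to 32.6 CPM (median 21.6) in normoxia TAC mice, against 8.90 to 11.7 CPM (median 10.6) in normoxia sham mice. It exceeded every sham mouse in 5 of 6 TAC mice and lay below them all in the remaining one. Mcam rose by 1.01 ± 0.26 on the log2 scale (edgeR adjusted p = 0.00696). Of 12 endothelial markers, 0 rose and 4 fell in this comparison by edgeR, with the same split by DESeq2 and limma voom. By edgeR 10.6% of all genes tested were called lower, and the median log2 change of the 12 was 0.03. Their sum ran from 2927 to 6788 CPM (mean 4764) in normoxia TAC mice. In normoxia sham mice the sum ran from 3882 to 4280 CPM (mean 4064). None of the markers was at 0, and their part in the result was not tested.

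Among the contractile genes, Myh11, the heavy chain of smooth muscle myosin, ranged from 5.80 to 32.2 CPM (median 13.3) in normoxia TAC mice and from 13.3 to 28.6 CPM (median 16.5) in normoxia sham mice. It lay above the sham range in 1 TAC mouse and below it in 3. The log2 change was -0.10 ± 0.30 (edgeR adjusted p = 0.828).

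Tagln, which encodes an actin-binding protein of smooth muscle, ranged from 2.85 to 21.9 CPM (median 9.41) in normoxia TAC mice, against 2.69 to 7.54 CPM (median 4.43) in normoxia sham mice. Mice 2, 3 and 4 of the TAC group exceeded every sham mouse, and the other TAC mice lay within the sham range. Tagln rose by 1.17 ± 0.39 on the log2 scale (edgeR adjusted p = 0.0303). The call was lost without normoxia TAC mouse 2, 3 or 4 or normoxia sham mouse 1, 2, 4 or 5, with edgeR adjusted p up to 0.113. It was also lost in the fit of only the 12 normoxia libraries (edgeR adjusted p = 0.0776), where 4 of 9 members and 19% of genes were called. Tagln overlaps Pcsk7 in RefSeq, so the assignment of its reads is uncertain.

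Cnn1, or calponin, binds actin and restrains myosin in smooth muscle. It ranged from 1.75 to 33.5 CPM (median 7.38) in normoxia TAC mice and from 1.06 to 4.82 CPM (median 1.39) in normoxia sham mice. Mice 2, 3 and 4 of the TAC group were again the high ones, at 33.5, 24.6 and 10.4 CPM, while TAC mice 1, 5 and 6 lay within the sham range at 1.75, 2.69 and 4.41 CPM. Cnn1 rose by 2.77 ± 0.68 on the log2 scale (edgeR adjusted p = 0.00518), on 19 to 418 reads per normoxia TAC mouse and 15 to 62 reads per normoxia sham mouse.

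The mice high in Cnn1 and Tagln were also those high in activated fibroblast genes. The sum of 9 such genes was 1245, 1148 and 1214 CPM in normoxia TAC mice 2, 3 and 4, and 172, 280 and 556 CPM in mice 1, 5 and 6, against 93.3 to 181 CPM in normoxia sham mice. Of the 9 genes 8 rose, against 16.8% of all genes called higher, and none was at 0. Postn, a matrix protein, led them (log2 change 3.36 ± 0.45, edgeR adjusted p = 9.89e-05). Acta2 belongs to this list and to the smooth muscle list below. Normoxia TAC mice 2, 3 and 4 also lay farthest of their group from the sham libraries on the first principal component. They lay at -58.0, -32.0 and -58.1, and mice 1, 5 and 6 at 15.7, -8.48 and -1.14. Whether the match is particular to fibroblast genes was not tested, nor was the part of activated fibroblasts in the contractile changes.

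Without normoxia TAC mouse 1, the library that lay among the sham libraries, all 5 members were still called, with log2 changes of 3.00 for Cnn1, 1.36 for Tagln, 1.13 for Mcam, -0.71 for Abcc9 and -0.61 for Notch3.

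**Figure D2:**
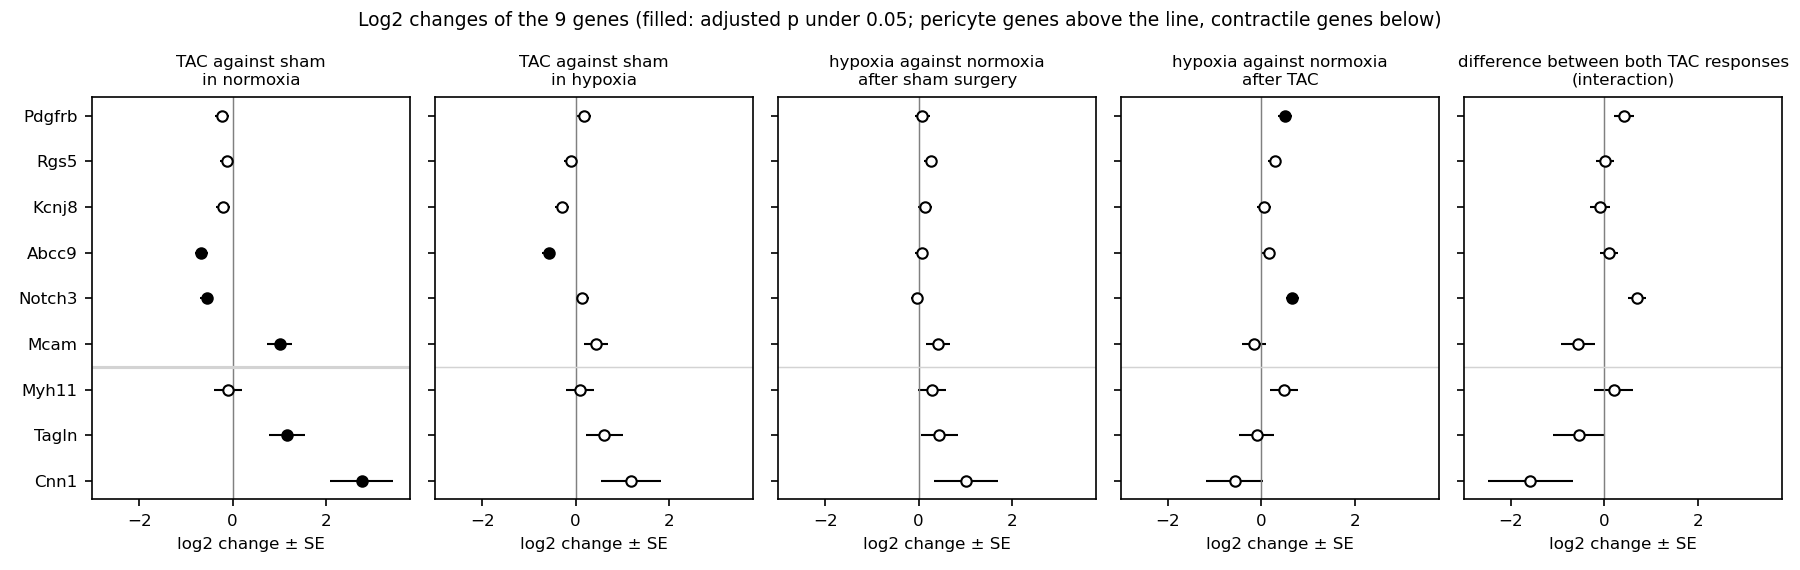
Log2 change with its standard error for the 9 genes in the 5 comparisons, filled where the adjusted p was under 0.05, with pericyte genes above the grey line and contractile genes below. Abcc9 is filled in both TAC comparisons, and Notch3 is filled below 0 for TAC against sham in normoxia and above 0 for hypoxia against normoxia after TAC.

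Other genes of the same cells were read beside the members. Among 17 other pericyte-enriched genes tested, 0 rose and 3 fell under TAC in normoxia by edgeR, again 3 by DESeq2 and 4 by limma voom. Of all genes tested, edgeR called 16.8% higher and 10.6% lower. The 3 were P2ry14, a receptor for UDP-sugars (-0.72 ± 0.24), Gucy1a1, a subunit of the nitric oxide receptor guanylate cyclase (-0.46 ± 0.16), and the collectin Colec11 (-0.65 ± 0.24), with edgeR adjusted p = 0.0291, 0.0411 and 0.0459. The median log2 change of the 17 was -0.12. None of the 17 was called in the fit of the 12 normoxia libraries.

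Of 19 other smooth muscle contractile genes tested, 5 rose and 3 fell, against 16.8% of all genes called higher and 10.6% lower. Their median log2 change was 0.46. The myosin light chain Myl6 rose by 1.07 ± 0.17 on the log2 scale (edgeR adjusted p = 0.000205), and tropomyosin Tpm2 by 1.24 ± 0.27 (adjusted p = 0.00231). The actin-filament gene Nexn rose by 0.37 ± 0.09 (adjusted p = 0.00393), caldesmon Cald1 by 0.82 ± 0.20 (adjusted p = 0.00561) and smooth muscle actin Acta2 by 1.31 ± 0.46 (adjusted p = 0.0393). Smtn, which encodes smoothelin, a marker of fully contractile smooth muscle, fell by 0.65 ± 0.17 on the log2 scale (edgeR adjusted p = 0.00627). Ppp1r12b, a subunit of myosin phosphatase, fell by 0.38 ± 0.11 and Mrvi1, a target of cyclic GMP signalling, by 0.54 ± 0.17 (edgeR adjusted p = 0.0145 and 0.0208). Myl6 is expressed in many cell types and Nexn in cardiomyocytes. Acta2, Smtn, Ppp1r12b and Mrvi1 were named after their values were seen.

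Around Notch3, 4 of 12 Notch pathway genes fell and 0 rose under TAC in normoxia by edgeR, against 10.6% of all genes called lower. The split was the same by DESeq2, with 3 lower by limma voom. The 4 called by edgeR were the ligand Dll1 (-0.71 ± 0.14, edgeR adjusted p = 0.00114), the target Heyl (-0.51 ± 0.11, adjusted p = 0.00195) and the receptors Notch4 (-0.72 ± 0.23, adjusted p = 0.0201) and Notch1 (-0.34 ± 0.13, adjusted p = 0.0483). Heyl averaged 25.7 ± 4.7 CPM in normoxia TAC and 36.5 ± 2.7 CPM in normoxia sham mice (SD, n = 6 each). The median log2 change of the 12 was -0.32, and Notch1 was the least stable of the 4, called in 7 of the 24 fits that left out 1 mouse. In the same comparison 4 of 12 endothelial markers fell and 0 rose. The part of endothelial RNA in the Notch pathway changes was not tested. None of 5 other genes of the platelet-derived growth factor system was called in any comparison by edgeR, DESeq2 or limma voom, with 1 at an unadjusted p under 0.05 in this one.

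Of 6 other small RGS genes, relatives of Rgs5, 4 rose under TAC in normoxia, against 16.8% of all genes called higher. Rgs16 rose by 3.03 ± 0.64, Rgs18 by 1.28 ± 0.29, Rgs19 by 0.81 ± 0.24 and Rgs10 by 0.64 ± 0.23 on the log2 scale (edgeR adjusted p = 0.00194, 0.00278, 0.0137 and 0.0437). Rgs18 is known from platelets and other blood cells. In the same comparison 7 of 8 macrophage and monocyte markers rose, and their sum ran from 296 to 837 CPM in normoxia TAC and from 195 to 253 CPM in normoxia sham mice, with none at 0. The part of these cells in the RGS changes was not tested.

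TAC against sham in hypoxia put the same question at low oxygen. Abcc9 fell, the only one of 9 members called, against 11.1% of all genes tested. It ranged from 124 to 248 CPM (median 181) in hypoxia TAC mice, against 246 to 286 CPM (median 268) in hypoxia sham mice. In 5 TAC mice it was below every sham mouse, and hypoxia TAC mouse 1 reached the lower end of the sham range. The fall was 0.58 ± 0.14 on the log2 scale (edgeR adjusted p = 0.0120). Cardiomyocyte markers summed to between 55557 and 77886 CPM in hypoxia TAC and between 68458 and 71902 CPM in hypoxia sham mice, with 0 of 8 higher and 1 lower by edgeR, and their part in the result was not tested.

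Kcnj8 ranged from 41.0 to 70.2 CPM (median 46.6) in hypoxia TAC mice and from 56.2 to 72.5 CPM (median 58.9) in hypoxia sham mice. It lay below the sham range in 4 TAC mice, and its log2 change was -0.29 ± 0.15 (edgeR adjusted p = 0.188). Abcc9 had 3.55 ± 0.48 reads per Kcnj8 read in hypoxia TAC and 4.33 ± 0.36 in hypoxia sham mice (SD, n = 6 each). These ratios overlapped, running from 2.87 to 4.16 in TAC mice and from 3.95 to 4.90 in sham mice.

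**Figure D3:**
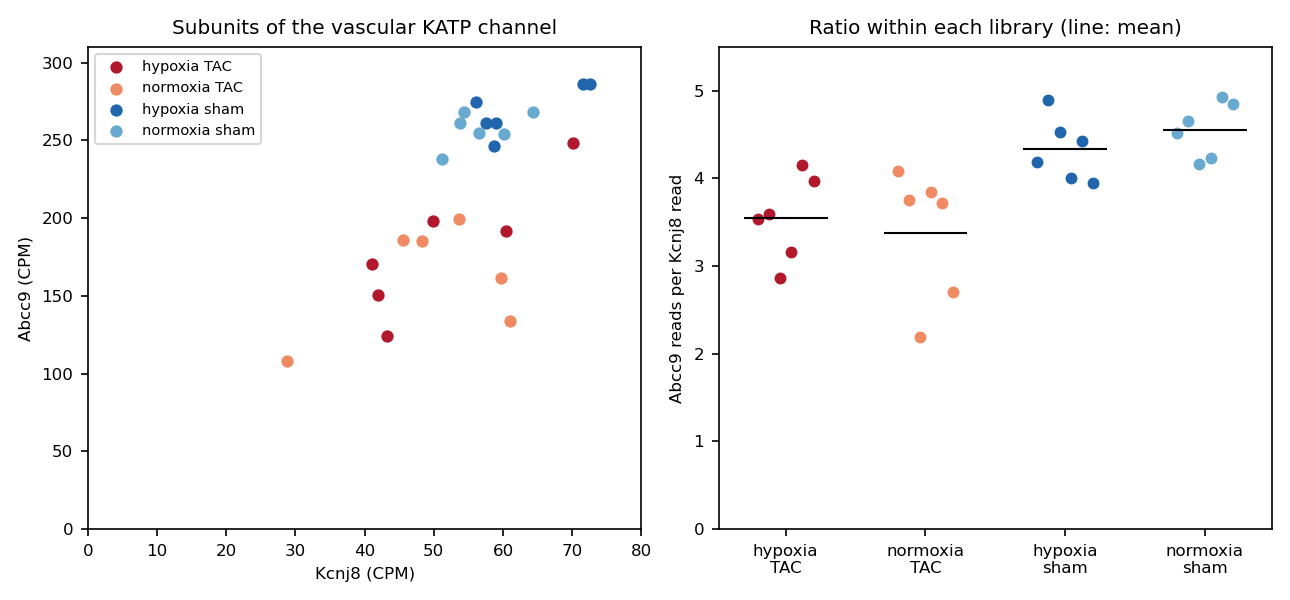
Left, Abcc9 CPM against Kcnj8 CPM in each of the 24 mice, both axes linear from 0. Right, Abcc9 reads per Kcnj8 read in each mouse with the group mean as a line: the normoxia TAC ratios, at most 4.09, all lie below the normoxia sham ratios, at least 4.17.

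Mice of the hypoxia TAC group spread widely in the contractile genes. Cnn1 ranged from 2.34 to 26.4 CPM (median 5.56) in hypoxia TAC mice, against 2.49 to 6.07 CPM (median 3.65) in hypoxia sham mice. Cnn1 lay above the sham range in 3 TAC mice and below it in 1, and was highest in mouse 2. Its log2 change of 1.18 ± 0.64 had an adjusted p = 0.219 by edgeR. Tagln ranged from 6.60 to 19.1 CPM (median 8.37) in hypoxia TAC mice and from 4.17 to 9.48 CPM (median 6.11) in hypoxia sham mice. Tagln lay above the sham range in 3 TAC mice, and was again highest in mouse 2. Its log2 change was 0.62 ± 0.39 (edgeR adjusted p = 0.294).

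Myh11 lay between 15.1 and 36.1 CPM (median 22.5) in hypoxia TAC mice, against 15.997 to 30.6 CPM (median 21.3) in hypoxia sham mice, with a log2 change of 0.09 ± 0.30 (edgeR adjusted p = 0.870). Activated fibroblast genes summed to between 249.8 and 1127 CPM in hypoxia TAC and between 137 and 298 CPM in hypoxia sham mice, with 7 of 9 higher by the test. Mouse 2 of the hypoxia TAC group had the top sum as well as the top Cnn1, whereas mouse 3, with a sum of 1075 CPM, had 4.47 CPM of Cnn1.

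The remaining pericyte genes overlapped between the hypoxia groups. Mcam ranged from 13.6 to 27.5 CPM (median 18.1) in hypoxia TAC mice and from 9.61 to 18.1 CPM (median 13.6) in hypoxia sham mice. It lay above the sham range in 3 TAC mice, with a log2 change of 0.44 ± 0.26 (edgeR adjusted p = 0.261). Notch3 changed by 0.15 ± 0.13, Pdgfrb by 0.19 ± 0.15 and Rgs5 by -0.11 ± 0.14 on the log2 scale, with edgeR adjusted p = 0.493, 0.435 and 0.636, and none of them passed the test. Vtn, which encodes the matrix protein vitronectin, fell by 0.77 ± 0.21 (edgeR adjusted p = 0.0223), alone among 17 other pericyte-enriched genes in the edgeR test. Of 19 other smooth muscle genes, 0 were called by edgeR, with 3 at an unadjusted p under 0.05, 3 called higher by DESeq2 and 3 by limma voom. Of the 12 Notch pathway genes 1 fell, Dll1, by 0.57 ± 0.14 (edgeR adjusted p = 0.0124). Over all genes tested, edgeR called 6.46% higher and 4.68% lower in this comparison.

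Hypoxia against normoxia after sham surgery asked what low oxygen does without pressure load. By edgeR 0 of 9 members were called, against 0.166% of all genes tested; 0 had an unadjusted p under 0.05, and 0 were called by DESeq2 or limma voom. The spread that this fit shares between groups came partly from the TAC mice: the coefficient of variation between mice that edgeR fitted was 0.241 with all libraries and 0.106 in the 12 sham libraries. Fitted on those 12 alone, 2 of 9 members rose, Rgs5 and Mcam, against 11.5% of genes called.

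Rgs5 ranged from 1341 to 1735 CPM (median 1424) in hypoxia sham mice, against 1136 to 1424 CPM (median 1242) in normoxia sham mice. In 3 of the hypoxia mice it was above the normoxia range. The log2 change was 0.26 ± 0.14 with all libraries (edgeR adjusted p = 0.667) and 0.27 ± 0.07 in the 12 sham libraries (edgeR adjusted p = 0.0287).

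Mcam ranged from 9.61 to 18.1 CPM (median 13.6) in hypoxia sham mice and from 8.90 to 11.7 CPM (median 10.6) in normoxia sham mice, with 5 of 6 hypoxia mice above the normoxia range. Its log2 change was 0.41 ± 0.26 with all libraries (edgeR adjusted p = 0.756) and 0.41 ± 0.12 in the 12 sham libraries (edgeR adjusted p = 0.0381). Endothelial markers summed to between 3928 and 4768 CPM in hypoxia sham and between 3882 and 4280 CPM in normoxia sham mice, and 8 of 12 rose and 1 fell in the same 12-library fit. Their part in the change of Mcam was not tested.

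Cnn1 had a log2 change of 1.01 ± 0.69 for hypoxia against normoxia in sham mice (edgeR adjusted p = 0.773), and 1.01 ± 0.37 in the 12-library fit (edgeR adjusted p = 0.0969). Tagln and Myh11 gave 0.44 ± 0.40 and 0.28 ± 0.30 (edgeR adjusted p = 0.848 and 0.883). The other pericyte members changed by -0.04 for Notch3, 0.06 for Abcc9, 0.08 for Pdgfrb and 0.14 for Kcnj8 on the log2 scale. None of these 7 members passed the edgeR test in either fit.

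Hypoxia against normoxia after TAC asked whether low oxygen altered the loaded heart. With all 24 libraries fitted, edgeR called Notch3 and Pdgfrb higher, 2 of 9 members, against 11.1% of all genes called in either direction and 4.66% called higher. Both calls were lost in the fit of only the 12 TAC libraries and by limma voom. The shared fit took part of its spread from the sham mice. The fitted coefficient of variation was 0.241 with all libraries and 0.323 in the 12 TAC libraries, so the shared fit understates the spread between TAC mice. In the 12 TAC libraries edgeR called 0 of 14267 genes, with 2364 genes and 2 members at an unadjusted p under 0.05, and limma voom, fitted on all 24 libraries with group weights, called 92 genes and 0 members. The same 6 normoxia TAC mice enter the comparison of TAC with sham in normoxia, so the lower Notch3 there and the higher Notch3 here share their samples.

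Notch3 ranged from 21.9 to 32.3 CPM (median 27.3) in hypoxia TAC mice, against 12.4 to 21.3 CPM (median 17.8) in normoxia TAC mice. All 6 hypoxia mice were above all 6 normoxia mice, a separation upward that 0.599% of all genes tested showed. Notch3 rose by 0.66 ± 0.14 on the log2 scale (edgeR adjusted p = 0.00494), and in the 12 TAC libraries the change was 0.68 ± 0.17 (edgeR adjusted p = 0.125).

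Pdgfrb ranged from 41.6 to 91.6 CPM (median 78.8) in hypoxia TAC mice and from 40.3 to 63.8 CPM (median 50.5) in normoxia TAC mice. It exceeded the normoxia range in 4 hypoxia mice, and the other 2 lay within it. Pdgfrb rose by 0.50 ± 0.15 on the log2 scale (edgeR adjusted p = 0.0381). The call was lost without hypoxia TAC mouse 1, 3, 5 or 6 or normoxia TAC mouse 1, 4, 5 or 6, with edgeR adjusted p up to 0.0832, and was 0.204 in the 12 TAC libraries.

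Rgs5 ranged from 980.4 to 1678 CPM (median 1513) in hypoxia TAC mice, against 817 to 1411 CPM (median 1150) in normoxia TAC mice, a log2 change of 0.28 ± 0.14 (edgeR adjusted p = 0.185). Myh11 changed by 0.48 ± 0.30, Cnn1 by -0.58 ± 0.61 and Tagln by -0.11 ± 0.38 (edgeR adjusted p = 0.317, 0.576 and 0.888). Abcc9, Kcnj8 and Mcam gave 0.15 ± 0.14, 0.05 ± 0.15 and -0.16 ± 0.25, all with overlapping groups and none past the test. For Abcc9 the hypoxia TAC mean was 181 ± 43 CPM and the normoxia TAC mean 162 ± 35 CPM (SD, n = 6 each).

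Of 17 other pericyte-enriched genes 3 rose with hypoxia after TAC and 0 fell by edgeR, as by DESeq2, with 1 higher by limma voom. They were Ndufa4l2, a mitochondrial gene known to respond to low oxygen (0.68 ± 0.15, edgeR adjusted p = 0.00910), Higd1b, a relative of the hypoxia-inducible Higd1a (0.76 ± 0.20, adjusted p = 0.0190), and Gucy1a1 (0.54 ± 0.16, adjusted p = 0.0359). The median log2 change of the 17 was 0.28, beside 0.22 over the 6 pericyte members and -0.02 over all genes. Of 12 Notch pathway genes, Notch4 rose by 0.93 ± 0.23 and Dll1 by 0.46 ± 0.14 (edgeR adjusted p = 0.0119 and 0.0357). Of 19 other smooth muscle genes, Smtn rose by 0.52 ± 0.17 and Nexn fell by 0.32 ± 0.09 (edgeR adjusted p = 0.0426 and 0.0228). By limma voom 0 genes of the Notch and smooth muscle lists were called here. Over all genes tested, edgeR called 4.66% higher and 6.41% lower.

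Of 12 endothelial markers 6 rose by edgeR, against 4.66% of all genes called higher, with 7 higher by DESeq2 and 0 by limma voom. Among them were Tie1, a receptor of vessel stability, with a log2 change of 0.52 ± 0.12, and Vwf, von Willebrand factor, with 0.86 ± 0.24 (edgeR adjusted p = 0.0103 and 0.0224). Their summed level ran from 3841 to 5319 CPM in hypoxia TAC and from 2927 to 6788 CPM in normoxia TAC mice, and none was at 0. The part of endothelial RNA in the changes of Notch3 and Pdgfrb was not tested.

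An interaction term, the TAC response in hypoxia minus that in normoxia, tested whether the response to load depended on oxygen. By edgeR 0 of 9 members were called, against 2.05% of all genes tested, and 1 had an unadjusted p under 0.05. That member was Notch3, with a log2 difference of 0.70 ± 0.19 (edgeR adjusted p = 0.0523). DESeq2 called it (adjusted p = 0.0151), limma voom did not, and edgeR called it in 6 of 24 fits that left out 1 mouse. Cnn1 differed by -1.58 ± 0.92 (edgeR adjusted p = 0.325) and was called in 0 of those 24 fits, and in 0 of 6 other alternatives. Abcc9 differed by 0.09 ± 0.19 (edgeR adjusted p = 0.836).

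Among the regulators of contractile genes, 2 of 8 had a higher and 1 a lower interaction by edgeR, against 1.12% and 0.925% of all genes tested. DESeq2 gave the same split, and limma voom called 1 higher and 1 lower. Elk1, an ETS factor that competes with myocardin for SRF, had 1.04 ± 0.22 (edgeR adjusted p = 0.0209), Myocd, myocardin itself, 0.76 ± 0.20 (adjusted p = 0.0476), and Tead1, a TEAD factor, -0.59 ± 0.15 (adjusted p = 0.0408). Elk1 averaged 13.6 ± 1.6 CPM in hypoxia TAC and 9.15 ± 2.77 CPM in hypoxia sham mice, and 9.50 ± 1.14 CPM in normoxia TAC and 13.2 ± 2.0 CPM in normoxia sham mice (SD, n = 6 each). Myocd averaged 356 ± 98 CPM in hypoxia TAC and 270.2 ± 25.0 CPM in hypoxia sham mice, against 259 ± 45 CPM in normoxia TAC and 332 ± 24 CPM in normoxia sham mice. Elk1 was called in all 24 fits that left out 1 mouse, Myocd in 8 and Tead1 in 7. Myocardin is also made by cardiomyocytes.

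Pericyte genes and contractile genes were set against each other by the mean log2 CPM of each set in each mouse, taken relative to the mean of normoxia sham mice. No test was made on these means, since the members were chosen with results known. The pericyte mean was 0.09 ± 0.15 in hypoxia TAC, -0.18 ± 0.15 in normoxia TAC and 0.15 ± 0.07 in hypoxia sham mice, with a spread of 0.06 in normoxia sham mice (SD, n = 6 each). The contractile mean was 1.06 ± 0.70 in hypoxia TAC, 0.90 ± 1.21 in normoxia TAC and 0.60 ± 0.37 in hypoxia sham mice, with a spread of 0.52 in normoxia sham mice. Contractile minus pericyte was 0.97 ± 0.79 in hypoxia TAC, 1.08 ± 1.13 in normoxia TAC and 0.46 ± 0.36 in hypoxia sham mice, with a spread of 0.54 in normoxia sham mice.

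Within the normoxia TAC group the contractile mean ran from -0.70 in mouse 1 to 2.30 in mouse 3, and the pericyte mean from -0.41 to -0.00. The pericyte mean averages genes that moved in opposite directions, since Mcam rose while Abcc9 and Notch3 fell. In this group the SD of log2 CPM was 0.87 for Mcam, as for Myh11. For the other pericyte genes it ran from 0.26 for Pdgfrb to 0.40 for Kcnj8. The pericyte mean ran from 0.04 to 0.22 in hypoxia sham mice and from -0.06 to 0.12 in normoxia sham mice, and the normoxia TAC and hypoxia sham ranges each overlapped the normoxia sham range. Leaving out Cnn1 lowered the difference to 0.58 in hypoxia TAC, 0.47 in normoxia TAC and 0.22 in hypoxia sham mice.

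**Figure D4:**
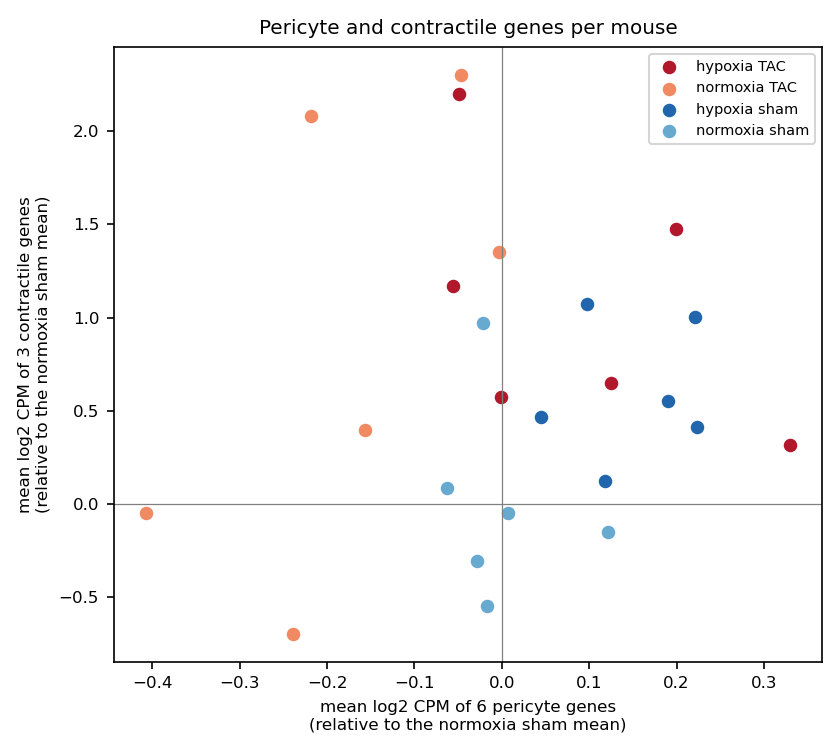
Mean log2 CPM of the 3 contractile genes (vertical) against that of the 6 pericyte genes (horizontal) in each of the 24 mice, both relative to the normoxia sham mean. TAC mice spread upward to 2.30, and on the horizontal axis the normoxia TAC mice, from -0.41 to -0.00, overlap the normoxia sham mice, from -0.06 to 0.12.

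Over the 24 mice, with group means removed, the 3 contractile genes went together: Myh11 with Tagln at r = 0.84, Myh11 with Cnn1 at r = 0.85 and Tagln with Cnn1 at r = 0.89. The 15 pairs of pericyte genes had a median r of -0.18, with a range from -0.57 to 0.83. Among them Rgs5 and Abcc9 had r = 0.83, Kcnj8 and Abcc9 r = 0.65, Rgs5 and Kcnj8 r = 0.45, and Pdgfrb and Notch3 r = 0.57. Without the 2 mice farthest from the median these were 0.70, 0.34, 0.15 and 0.47, and in the 12 sham mice alone 0.39, 0.66, -0.01 and 0.46. Mcam had r = 0.71 with Tagln, 0.67 with Cnn1, 0.50 with Myh11 and -0.57 with Abcc9. In the 12 TAC mice these were 0.77, 0.75, 0.52 and -0.61, and in the 12 sham mice 0.37, 0.17, 0.40 and -0.26. These are descriptions over 24 mice that share library scaling and, in the TAC groups, a wide spread. The contractile median was 0.86 in the 12 TAC mice and 0.80 in the 12 sham mice, and the pericyte median was -0.27 in TAC mice and 0.06 in sham mice.

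**Figure D5:**
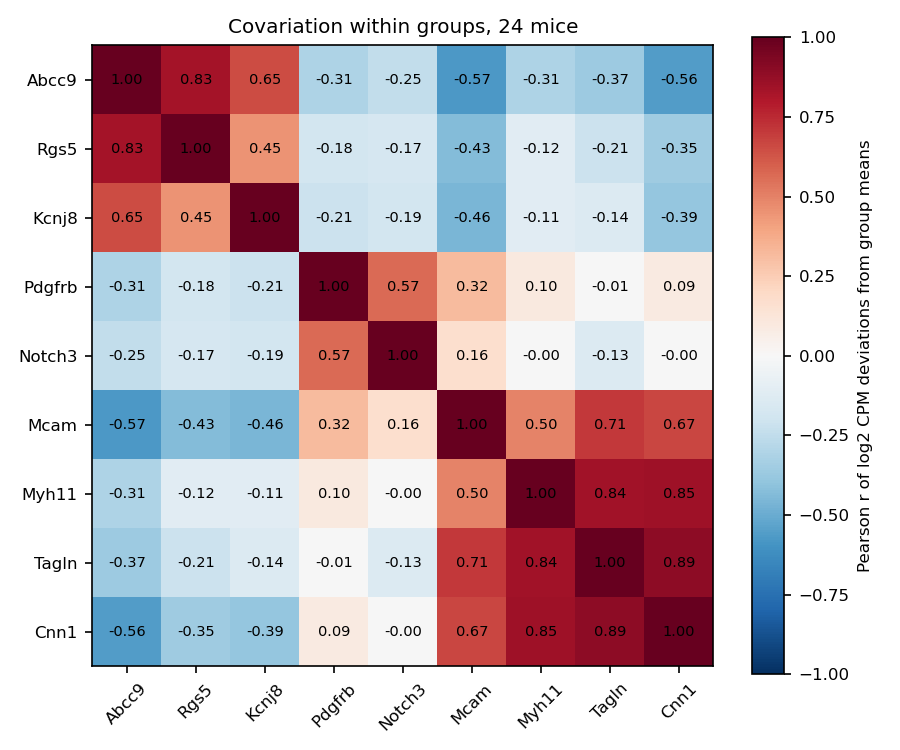
Pearson r between the log2 CPM of each pair of the 9 genes over 24 mice, after the group means were removed. The 3 contractile genes have r from 0.84 to 0.89 with each other, and the pairs of pericyte genes run from -0.57, for Abcc9 and Mcam, to 0.83, for Rgs5 and Abcc9.

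Over the same 24 mice, the genes most like each member were sought among 12522 others with a mean of at least 1 CPM. Myh11 was most like Myl9, the regulatory light chain of smooth muscle myosin (r = 0.89), and Actg2, enteric smooth muscle actin (r = 0.86), and Actg2 was also first for Cnn1 (r = 0.89). Tagln was most like Skap2 (r = 0.85), and Mcam like Pls3, Tpm4 and Swap70 (r = 0.87, 0.86 and 0.86), of which Pls3 and Tpm4 encode actin-filament proteins. Abcc9 was most like Txndc16, Svip and Kiz (r = 0.94, 0.92 and 0.92), and Rgs5 like Aplp2, Tfb2m and Idh3a (r = 0.88, 0.87 and 0.87), the last 2 mitochondrial genes. Kcnj8 was most like Ankdd1b (r = 0.84), Pdgfrb like Hdac6 (r = 0.85) and Notch3 like Pitpnm1 (r = 0.78). Without the 2 mice farthest from the member's median, r stayed between 0.66 and 0.89 for these genes. None of the genes likest to a member was on the list of other pericyte-enriched genes.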

How the data were processed

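The deposited table holds raw read counts per gene symbol, made by the authors. Per the submitters' processing notes, the build was GRCm39 and the tools were featureCounts (Subread 2.0.0), STAR 2.7.3a and bcl2fastq 2.20.0.422. Their settings, the strand setting and the annotation release are not given in the sources used here. Column numbers were joined to mice through the sample descriptions, and 0 columns were left unused. The labels name no batch.

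Counts were fitted in edgeR 4.0.16 (R 4.3.3) with TMM scaling. The filter (filterByExpr, minimum count 10, minimum total 15) kept 15027 of 40840 genes, with 99.9% of counts. The robust quasi-likelihood F test over all 24 libraries had 20 residual degrees of freedom, and p-values were adjusted by Benjamini-Hochberg over all genes tested with a threshold of 0.05. Log2 CPM used a prior count of 2. The SE of a log2 change was derived from the test, as the absolute log2 change divided by the square root of F. The 60 pairs of libraries of 1 group differed by more than sampling noise (chi-square per gene 3.51 to 146.3), more than repeat sequencing of 1 library would give. That cannot show that each library came from a separate mouse, which was taken from the numbered sample titles. Totals of 10136915 to 15058159 counts set the counting precision, which is lowest for Cnn1.

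The 9 members and 20 other gene lists were chosen with earlier results of these data known. The text names all members, of each other list up to 4 called genes with the smallest p in a comparison, and for each member the likest genes by r, any other name being said to be chosen after its values were seen. On simulated data for TAC against sham in normoxia with 15027 genes, 84 of 100 genes changed 2-fold, 96 of 100 changed 4-fold and 10 unchanged genes were called. The simulation gave each gene the same spread in all groups. In the data the fitted coefficient of variation was 0.106 in the 12 sham libraries and 0.323 in the 12 TAC libraries. The simulation therefore cannot show how often the test errs on these data. Alternatives were other scalings, no filter, DESeq2 1.42.0, voom of limma 3.58.1 with group weights, fits of only the 12 libraries compared, a replicate block, and leaving out each mouse.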

Additional observations from a re-analysis of the deposited data

Results flagged for a closer look

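Within groups of 6 mice, 44 sets of values were checked for a mouse far from the others, of which chance marks about 1 in 20, and 3 were marked. Tagln in hypoxia TAC mouse 2 had a log2 CPM of 4.27, or 19.1 CPM, above the other hypoxia TAC mice. Cnn1 in normoxia sham mouse 6 had a log2 CPM of 2.32, or 4.82 CPM, above the other normoxia sham mice. The mean log2 CPM of the pericyte genes in normoxia sham mouse 1 was 0.122 relative to the normoxia sham mean, the highest of its group.

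TAC responses differed between hypoxia and normoxia by the edgeR interaction test for 4 genes of the vascular and regulator lists, with log2 differences of 1.04 for Elk1, 0.76 for Myocd, 0.69 for Flt1, a receptor for vascular endothelial growth factor, and -0.59 for Tead1. Over all genes tested, edgeR called 2.05% in the interaction. Elk1 was called in 24 of 24 fits that left out 1 mouse, Myocd and Flt1 in 8 each and Tead1 in 7.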

How the results depend on the processing

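Abcc9 (both TAC comparisons) and Notch3, Mcam and Cnn1 (TAC in normoxia) were called in all 24 fits that left out 1 mouse and in all 7 other alternatives; Notch3 after TAC was called in 24 and in 5 of 7. Tagln in normoxia was called in 17 of 24 and 3 of 7, and Pdgfrb after TAC in 16 of 24 and 3 of 7. For hypoxia against normoxia after TAC, where 2 members were called, 1 was called with no filter on low counts, 0 by voom and 0 in the 12 libraries compared, and 1 to 2 with 1 mouse left out. In the interaction 1 member was called by DESeq2 and 0 to 1 with 1 mouse left out. In hypoxia against normoxia after sham surgery 2 were called in the 12 libraries. For TAC in normoxia 4 to 5 were called with 1 mouse left out.

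Over all genes, TAC in hypoxia (1674 called) gave 1019 with no filter, 2782 by voom and 664 to 2834 with 1 mouse left out. TAC in normoxia (4114) gave 2724 in the 12 libraries and 3151 to 5083 with 1 mouse left out. Hypoxia after sham surgery (25) gave 11 with no filter, 96 by DESeq2, 1355 by voom, 1658 in the 12 libraries, and 6 to 50 with 1 mouse left out. Hypoxia after TAC (1663) gave 1031 with no filter, 92 by voom, 0 in the 12 libraries and 775 to 2169 with 1 mouse left out. The interaction (308) gave 135 with no filter, 919 by DESeq2 and 93 to 946 with 1 mouse left out. The cause was not tested.

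With the replicate number as a block, 13 genes were called for hypoxia after sham surgery and 1 member for hypoxia after TAC; Tagln in normoxia had an edgeR adjusted p = 0.0669 and Pdgfrb after TAC 0.0683. Of 36 pairs of same-numbered mice, 5 had r over 0.1 (range -0.31 to 0.35). Among these, 4 were of the 6 pairs of hypoxia TAC with normoxia TAC mice, whose other 2 had -0.31 and -0.20. Of 24 mice, 4 were closest to their own number. The rule that every pair has r over 0.1 was not met, but it cannot exclude a pairing of some of the mice. Among uncalled changes, Tagln after TAC changed sign to 0.14 by voom and 0.0304 with the block. With 1 mouse left out the sign also changed for Tagln after TAC (-0.40 to 0.24), Mcam after TAC (-0.34 to 0.0171), Kcnj8 after TAC (-0.0602 to 0.11), Myh11 under TAC in normoxia (-0.39 to 0.0720) and in hypoxia (-0.0725 to 0.21), Notch3 after sham surgery (-0.10 to 0.0183), and the interactions of Rgs5 (-0.0499 to 0.11) and Abcc9 (-0.00929 to 0.19).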

Other observations

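In the 12 sham libraries fitted alone, 7 of 17 other pericyte-enriched genes rose and 1 fell with hypoxia, and 2 of 18 other smooth muscle genes rose by edgeR, against 11.5% of all genes called in that fit. With all 24 libraries edgeR called 0 of 17 pericyte-enriched genes, with 4 at an unadjusted p under 0.05, 1 higher by DESeq2 and 6 higher by limma voom.

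The SRF regulators Elk1 and Tead1 were also called in hypoxia for TAC against sham. Elk1 rose by 0.56 ± 0.16 and Tead1 fell by 0.44 ± 0.11 on the log2 scale (edgeR adjusted p = 0.0258 and 0.0119). Tead1 averaged 70.1 ± 8.9 CPM in hypoxia TAC and 95.3 ± 4.0 CPM in hypoxia sham mice (SD, n = 6 each).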
